A study of Mus musculus with 12 samples.

Results

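The genes described here carry glucose across the cells of the kidney tubule or make glucose in them, and each was found by its symbol in the gene name column of the count table. There were 10 such genes among the 57490 genes of the table: the sodium-coupled carriers Slc5a1, Slc5a2 and Slc5a10, the facilitated carriers Slc2a1 and Slc2a2, and the glucose production genes Pcx, Pck1, Fbp1, G6pc and Slc37a4. Messenger RNA of the kidney was sequenced from 12 male mice aged 13 weeks, 4 in each of 3 groups. Ctrl mice were db/m (db/+) animals on the BKS strain that received purified water. Model mice were diabetic db/db animals, BKS.Cg-Dock7m +/+ Leprdb/JNju, that also received purified water. YHY mice were db/db animals of that same strain given a water extract of Yiqi Huoxue Yangyin Decoction, a mixture of medicinal plants, by gavage once daily for 4 weeks, at 6.24 g/mL in a volume of 50 µL for each 10 g that a mouse weighed, as the labels give it. The paper gives its doses per kilogram and does not state which dose group was sequenced, so the dose of these mice is not settled. The labels call the tissue kidney, while the series text calls it renal cortex.

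In the proximal tubule, glucose filtered by the glomerulus enters the cell together with sodium through carriers of the brush border and leaves it towards the blood through facilitated carriers of the opposite membrane. The same cells make glucose from lactate, glutamine and glycerol, and in the fasted state the kidney is, with the liver, a source of blood glucose. Uptake of filtered glucose is known as a drug target in diabetes.

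The libraries held between 29632718 and 33276634 counts in Ctrl, between 24415658 and 29784346 in Model, and between 25149764 and 29698342 in YHY. Transcripts of the mitochondrial chromosome took 19.5% ± 2.12 of the counts in Ctrl (mean ± SD, n = 4), 52.2% ± 7.68 in Model and 56.8% ± 5.21 in YHY. The highest Ctrl library, at 22.7%, lay below the lowest db/db library, Model 1 at 41.2%, and the Wilson 95% interval of a single library was at most 0.0396 points wide. The share therefore moved with genotype beside every result that compares db/db with Ctrl mice, and its part in those results was not tested. Levels are given as CPM, counts per 1000000 of a library total scaled by the trimmed mean of M values (TMM), or per kilobase of the gene length given in the table (FPKM) where genes are compared with each other. All 10 genes had enough counts to be tested, and the lowest count of any of them was 254, for Slc5a1 in YHY 1.

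The question of the first comparison is what differs in the kidney of diabetic mice, and the question of the second is what differs in diabetic mice given the decoction. Of the 10 genes, 3 passed an adjusted P of 0.05 between Model and Ctrl: Pck1 rose, and Slc5a1 and Fbp1 fell. Across all 17431 genes tested, 38% passed in that comparison, 19.6% higher and 18.5% lower in Model. Between YHY and Model, 2 of the 10 passed, Slc2a2 and Fbp1, both lower in YHY, against 13.3% of all genes, 5.63% higher and 7.62% lower. Between YHY and Ctrl, 3 of the 10 passed, Slc5a1, Pcx and Fbp1, all lower in YHY, against 50.3% of all genes, 26.1% higher and 24.2% lower. Under the limits used by the study, a fold over 1.2 with an unadjusted P under 0.05, 4 of the 10 passed in each comparison, against 46.9%, 28.6% and 56% of all genes in the same order. With 10 genes, a count near the share of all genes is not a result about the set. In whole tissue, fewer cells of a type and less RNA per cell cannot be told apart. The 3 comparisons share mice in pairs, so their results are not independent of each other.

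The median log2 fold change of the 10 genes was -0.24 between Model and Ctrl, -0.33 between YHY and Model, and -0.57 between YHY and Ctrl, beside medians of 0.04, 0.02 and 0.10 over all genes tested. Scaling by library size alone moved the median of all genes to -0.39 between Model and Ctrl and to -0.33 between YHY and Ctrl, and upper-quartile scaling moved it to 0.14 and 0.22. Among the genes called under library size alone, 21.4% were higher in Model than in Ctrl, against 51.5% under TMM, and 28.3% against 51.9% were higher in YHY than in Ctrl. Relative to the median of all genes, Pck1 was 0.88 higher in Model than in Ctrl under TMM, 0.88 under upper-quartile scaling and 0.92 under library size alone, on the log2 scale. For Fbp1 these relative values were -1.35, -1.35 and -1.34, and for Slc5a1 they were -1.17, -1.17 and -1.15.

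**Figure D1:**
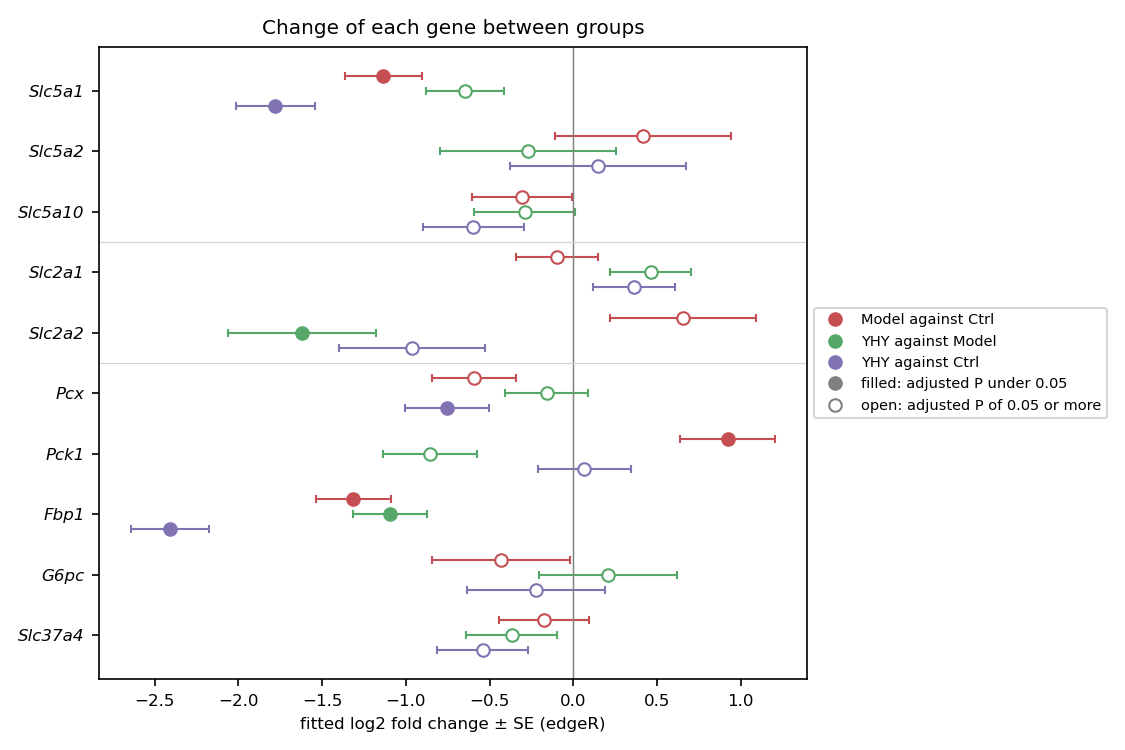
Log2 fold change (x axis) of the 10 genes (y axis) in the 3 comparisons, with filled points for an adjusted P under 0.05 and bars for 1 SE of the edgeR fit. Fbp1 lies left of 0 in all 3 comparisons, while Pck1 lies right of 0 between Model and Ctrl and left of it between YHY and Model.

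The promoter windows shown here, on build GRCm38.p6, were chosen because Slc5a1, Slc2a2, Pck1 and Fbp1 are the genes that passed the test between Model and Ctrl or between YHY and Model. The windows run 5′ to 3′ on the strand of the gene: chr5:33103969-33104268 on the plus strand for Slc5a1, chr3:28697653-28697952 on the plus strand for Slc2a2, chr2:173152823-173153122 on the plus strand for Pck1, and chr13:62888233-62888532 on the minus strand for Fbp1. The sequences are from RefSeq, and the set of windows used here covered 9 of the 10 genes, without one for Slc5a2. Capitals mark matches, on either strand, to the 5 motifs searched.
Slc5a1: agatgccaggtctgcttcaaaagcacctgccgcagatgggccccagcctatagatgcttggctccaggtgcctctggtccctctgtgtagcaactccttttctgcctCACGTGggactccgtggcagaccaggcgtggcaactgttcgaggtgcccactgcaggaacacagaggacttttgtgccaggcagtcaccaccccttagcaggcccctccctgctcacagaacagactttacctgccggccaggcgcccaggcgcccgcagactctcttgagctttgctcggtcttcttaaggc
Slc2a2: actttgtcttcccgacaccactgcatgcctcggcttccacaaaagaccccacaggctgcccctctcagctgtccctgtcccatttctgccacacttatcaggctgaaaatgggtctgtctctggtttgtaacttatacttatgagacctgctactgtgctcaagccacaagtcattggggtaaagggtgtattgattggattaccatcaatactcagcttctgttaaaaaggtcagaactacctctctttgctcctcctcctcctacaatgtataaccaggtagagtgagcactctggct
Pck1: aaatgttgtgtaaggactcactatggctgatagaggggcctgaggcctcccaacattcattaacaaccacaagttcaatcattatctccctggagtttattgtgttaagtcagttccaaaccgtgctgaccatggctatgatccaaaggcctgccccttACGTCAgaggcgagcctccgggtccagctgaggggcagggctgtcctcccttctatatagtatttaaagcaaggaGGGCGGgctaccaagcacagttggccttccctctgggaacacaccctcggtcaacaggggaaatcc
Fbp1: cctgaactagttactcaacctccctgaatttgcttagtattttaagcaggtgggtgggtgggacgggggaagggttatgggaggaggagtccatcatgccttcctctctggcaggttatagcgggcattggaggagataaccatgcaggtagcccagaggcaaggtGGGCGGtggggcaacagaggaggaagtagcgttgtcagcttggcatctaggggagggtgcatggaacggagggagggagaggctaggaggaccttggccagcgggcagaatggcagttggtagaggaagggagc

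The Pck1 window held ACGTCA, the core of the cAMP response element, 91 bases before the gene's start, a letter run present in 7.51% of all 32851 windows. It also held GGGCGG, the GC box (35.7% of windows). The Slc5a1 window held CACGTG, an E box (7.15%), and the Fbp1 window held GGGCGG. None of the 5 motifs was in the Slc2a2 window. TGTTTTG, the core of the insulin response sequence (6.28%), and TATAAA, the TATA box (13.6%), were in none of these 4 windows, and both were in the window of G6pc, which is not printed. A match is a description of letters, and a missing match says only that the letters are not in the window.

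Slc5a1 encodes SGLT1, the high-affinity sodium-glucose carrier of the later proximal tubule. The gene is ENSMUSG00000011034, at chr5:33261563-33320214 on the plus strand of GRCm39, the build named by the submitters. It was at 48.1, 52.0, 50.2 and 60.8 CPM in Ctrl 1 to 4, at 31.7, 18.8, 21.7 and 23.8 in Model 1 to 4, and at 9.68, 17.1, 11.6 and 23.1 in YHY 1 to 4. Every db/db mouse lay below every Ctrl mouse, and YHY overlapped Model. The summed markers of the late proximal tubule had that same order, at 1919 CPM or more in Ctrl and 769 or less in db/db mice, and their part in this result was not tested. Slc5a1 fell 2.19-fold in Model against Ctrl (log2 fold change -1.13, SE 0.23, adjusted P 0.00129, exact permutation P 0.0286) and 3.43-fold in YHY against Ctrl (log2 fold change -1.78, SE 0.24, adjusted P 1.84e-05). Between YHY and Model the log2 fold change was -0.65 (SE 0.23) with an adjusted P of 0.0792. Without YHY 4 it was -0.92 with an adjusted P of 0.0101, and with the 9 mice behind the authors' group means it was -0.74 (0.0281). The adjusted P was 0.0493 under DESeq2 and 0.0249 without the filter on low counts. With the study's limits, 5 of the 18 settings run passed.

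Slc5a2 encodes SGLT2, the high-capacity carrier of the early proximal tubule and the target of the gliflozin drugs. It is ENSMUSG00000030781 at chr7:127864829-127871602 on the plus strand. Its level was 51.7, 74.5, 59.3 and 19.6 CPM for Ctrl, 75.6, 82.8, 75.2 and 40.6 for Model, and 11.6, 35.0, 43.5 and 137 for YHY. All 3 groups overlapped, and YHY held both the lowest and the highest mouse of the 12. The log2 fold change was 0.42 between Model and Ctrl (95% interval -0.70 to 1.53, adjusted P 0.562) and -0.27 between YHY and Model (-1.38 to 0.85, adjusted P 0.791). Without YHY 1 the latter was 0.07, and without YHY 4 it was -1.19 with an adjusted P of 0.0708. Between YHY and Ctrl it was 0.15 under TMM and -0.28 under library size alone, and it was -0.20 without Ctrl 4 and -0.78 without YHY 4 (adjusted P 0.139). With the 9 mice behind the authors' group means it was -0.58 and with the replicate number as a block -0.05, and none of these values was called. The gene Rusf1 overlaps Slc5a2 on the opposite strand and its mean count was 25.5% of that of Slc5a2; the submitters do not state whether strand was used in counting.

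Slc5a10 encodes SGLT5, a kidney carrier that prefers mannose and fructose. It ranged from 141 to 225 CPM in Ctrl, from 101 to 222 in Model and from 69.6 to 193 in YHY, and its groups overlapped. Its log2 fold change was -0.31 between Model and Ctrl, -0.29 between YHY and Model and -0.60 between YHY and Ctrl, with adjusted P values of 0.447, 0.571 and 0.111. Without YHY 4 the last of these was -0.93, with an adjusted P of 0.0112. It also passed under library size alone (-1.08, 0.00784) and without the filter on low counts (-0.64, 0.0277). With the 9 mice behind the authors' group means it was -0.93 (0.00586).

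**Figure D2:**
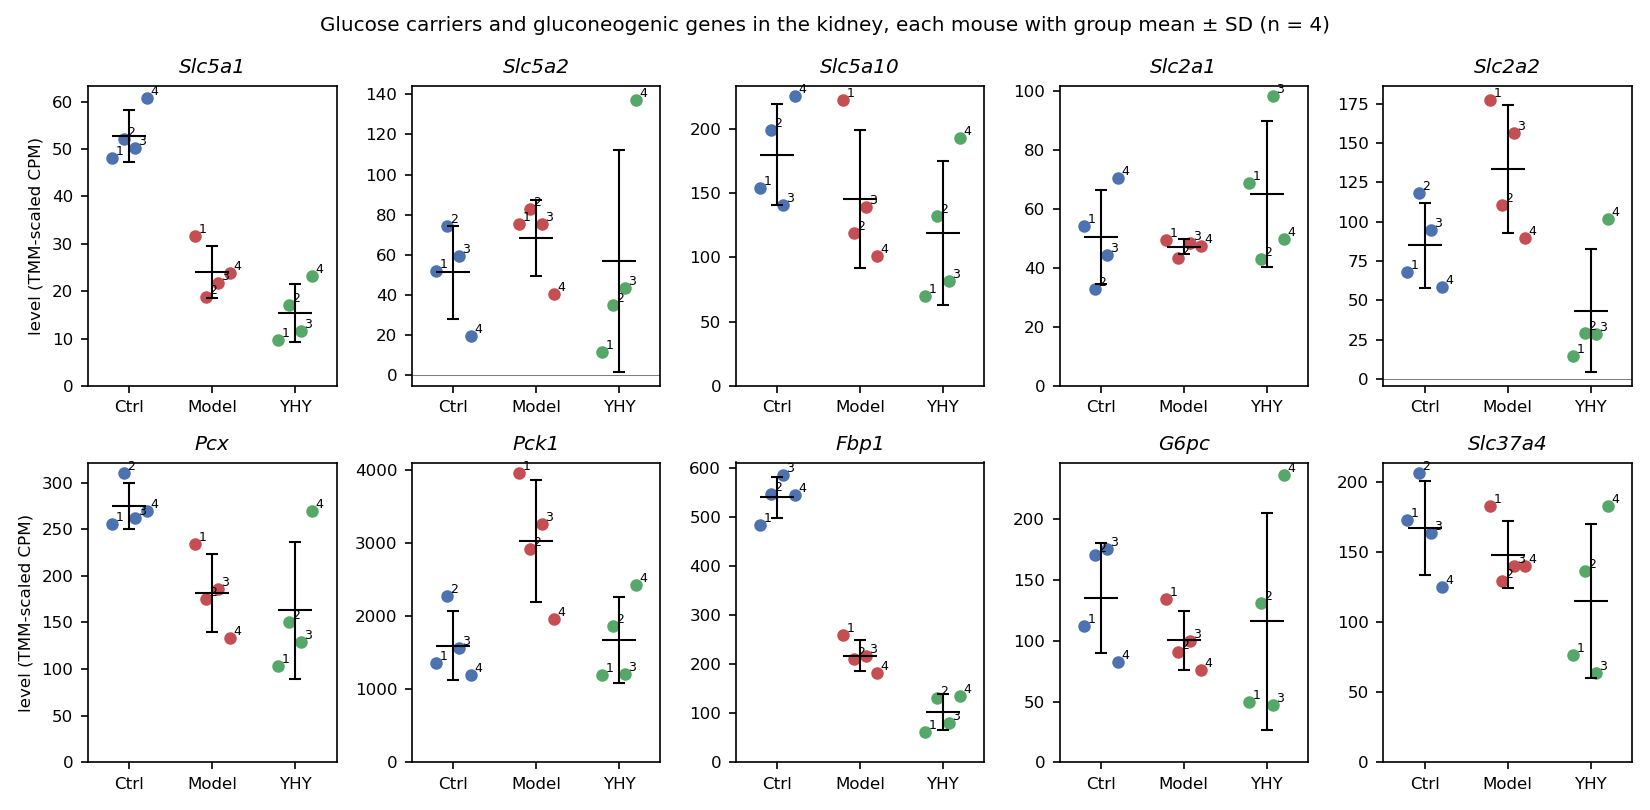
CPM (y axis) of each of the 10 genes in the 12 mice, with 1 numbered point per mouse and lines for the mean ± SD of each group (Ctrl, Model and YHY, n = 4). Slc5a1 and Fbp1 in the db/db mice lie below every Ctrl mouse, and Slc2a2 in YHY 4 lies far above the other YHY mice.

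Slc2a2 encodes GLUT2, the facilitated carrier through which glucose leaves early proximal tubule cells. It is ENSMUSG00000027690 at chr3:28752052-28785508 on the plus strand. Its level was 68.2, 118, 94.4 and 58.5 CPM for Ctrl, 178, 111, 156 and 89.6 for Model, and 14.7, 28.9, 28.6 and 101 for YHY. YHY 1, YHY 2 and YHY 3 lay below every other mouse, and YHY 4 lay within the range of Model. Slc2a2 fell 3.07-fold in YHY against Model (log2 fold change -1.62, SE 0.44, adjusted P 0.0256, exact permutation P 0.0571). The call was lost without Model 1 (-1.47, adjusted P 0.0646), Model 3 (-1.54, 0.071), YHY 2 (-1.47, 0.0708) or YHY 3 (-1.47, 0.0649), and without YHY 4 the value was -2.48 with an adjusted P of 0.000435. Between Model and Ctrl the log2 fold change was 0.66 (95% interval -0.26 to 1.57, adjusted P 0.25), and it passed when only these 8 mice were fitted (0.64, adjusted P 0.0432). Between YHY and Ctrl it was -0.96 (adjusted P 0.0778), and it passed without YHY 4 (-1.82, 0.000164) or without Ctrl 4 (-1.19, 0.0445).

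Slc2a1 encodes GLUT1, the facilitated carrier of later tubule segments and of most other cells. It ranged from 32.8 to 70.5 CPM in Ctrl, from 43.4 to 49.4 in Model and from 42.9 to 98.3 in YHY. The range of Model lay inside that of Ctrl. Its log2 fold change was -0.10 between Model and Ctrl (95% interval -0.62 to 0.42, adjusted P 0.782) and turned to 0.01 under upper-quartile scaling, and it was 0.46 between YHY and Model (adjusted P 0.228). Between YHY and Ctrl it was 0.36 (adjusted P 0.229) under TMM and -0.04 under library size alone.

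Pcx encodes pyruvate carboxylase, which makes oxaloacetate from pyruvate in mitochondria, the entry step of glucose production from lactate. It is ENSMUSG00000024892 at chr19:4560500-4671780 on the plus strand. Its level was 256, 310, 262 and 269 CPM for Ctrl, 234, 175, 186 and 133 for Model, and 103, 151, 129 and 270 for YHY. Every Model mouse lay below every Ctrl mouse, and YHY 4 lay within the range of Ctrl. Between Model and Ctrl the log2 fold change was -0.59 (SE 0.25) with an adjusted P of 0.0727 and an exact permutation P of 0.0286, the smallest that 4 against 4 mice allow. It passed an adjusted P of 0.05 in 6 alternatives, among them DESeq2 (0.0406), the fit of only these 8 mice (0.0095) and the fit without Model 1 (-0.80, 0.0227), and it also met the study's own limits, which use the unadjusted P (0.0307). Pcx fell 1.68-fold in YHY against Ctrl (log2 fold change -0.75, SE 0.25, adjusted P 0.02, exact permutation P 0.114), and the call was lost without YHY 1 (-0.59, 0.0591) or YHY 3 (-0.66, 0.0594).

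Pck1 encodes the cytosolic phosphoenolpyruvate carboxykinase, which turns oxaloacetate into phosphoenolpyruvate and is a main point of control of glucose production. It is ENSMUSG00000027513 at chr2:172994841-173001066 on the plus strand. Its level was 1365, 2270, 1559 and 1195 CPM for Ctrl, 3958, 2920, 3265 and 1959 for Model, and 1198, 1869, 1203 and 2422 for YHY. In 3 of 4 Model mice Pck1 was above every Ctrl and every YHY mouse, and Model 4 lay among them. Pck1 rose 1.89-fold in Model against Ctrl (log2 fold change 0.92, SE 0.28, adjusted P 0.0174, exact permutation P 0.0571). The call was lost without Ctrl 1 (0.80, adjusted P 0.0648), Ctrl 3 (0.86, 0.0518), Ctrl 4 (0.76, 0.064) or Model 1 (0.70, 0.0584), and under library size alone (0.53, 0.116). Between YHY and Model the log2 fold change was -0.85 (95% interval -1.45 to -0.26) with an adjusted P of 0.0565. This comparison passed in 7 of the 18 settings run. They were the fits without Model 4 (-1.02, adjusted P 0.0369) and without YHY 4 (-1.09, 0.0176), DESeq2 (0.0126) and library size alone (-0.90, 0.0471). The others were the fit without the filter on low counts (-0.87, 0.0231), the 9 mice behind the authors' group means (-0.92, 0.023) and the study's limits. Between YHY and Ctrl the log2 fold change was 0.07 (-0.53 to 0.66, adjusted P 0.862) and it was -0.38 under library size alone. It was also under 0 without Ctrl 1 (-0.07), Ctrl 3 (-0.02), Ctrl 4 (-0.12) or YHY 4 (-0.17), and not called in any of these.

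Fbp1 encodes fructose-1,6-bisphosphatase, which removes a phosphate in a step of glucose production that no enzyme of glycolysis carries out. It is ENSMUSG00000069805 at chr13:63012567-63036096 on the minus strand. Its level was 483, 546, 584 and 545 CPM for Ctrl, 259, 210, 217 and 182 for Model, and 61.8, 131, 79.7 and 134 for YHY. The 3 groups did not overlap: every YHY mouse lay below every Model mouse, and every Model mouse below every Ctrl mouse. Between Ctrl and db/db mice the summed late proximal tubule markers did not overlap either, and their part was not tested. Within YHY, Fbp1 and the summed early proximal tubule markers were both lowest in YHY 1 and YHY 3, and the part of these markers was not tested either. Fbp1 fell 2.49-fold in Model against Ctrl (log2 fold change -1.31, SE 0.22, adjusted P 0.000325), 2.13-fold in YHY against Model (-1.09, SE 0.22, adjusted P 0.00594) and 5.31-fold in YHY against Ctrl (-2.41, SE 0.23, adjusted P 1.17e-06). Each of the 3 gave an exact permutation P of 0.0286.

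G6pc encodes the catalytic subunit of glucose-6-phosphatase, which releases free glucose, and Slc37a4 encodes the carrier that brings glucose-6-phosphate to it in the endoplasmic reticulum. G6pc ranged from 82.4 to 176 CPM in Ctrl, from 76.2 to 134 in Model and from 47.4 to 236 in YHY. Slc37a4 ranged from 125 to 207 in Ctrl, from 129 to 183 in Model and from 63.9 to 183 in YHY. The groups overlapped for both genes, and in YHY both were lowest in YHY 1 and YHY 3 and highest in YHY 4, as were the summed markers of the early proximal tubule, whose part was not tested. Between Model and Ctrl the log2 fold change was -0.43 for G6pc (95% interval -1.30 to 0.44) and -0.17 for Slc37a4 (-0.75 to 0.40). Between YHY and Model it was 0.21 for G6pc (-0.66 to 1.08), which turned to -0.41 without YHY 4 and to -0.24 with the 9 mice behind the authors' group means, and -0.37 for Slc37a4 (adjusted P 0.4). Slc37a4 was -0.54 between YHY and Ctrl (adjusted P 0.109), and it passed without YHY 4 (-0.86, 0.00811) or without Ctrl 4 (-0.73, 0.0411). It also passed under library size alone (-1.01, 0.00365) and without the filter on low counts (-0.58, 0.0353). With the 9 mice behind the authors' group means it was -0.79 (0.0127).

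Per kilobase of gene length, Pck1 was the most abundant of the 10 in every group, at a mean FPKM of 466 in Ctrl, 882 in Model and 488 in YHY. Fbp1 came next in every group, at 317 in Ctrl, 127 in Model and 59.7 in YHY, and Slc5a10 followed at 76.1, 61.5 and 50.3. Slc5a1 had the lowest mean FPKM in every group, at 12.9, 5.85 and 3.75. In Ctrl, Slc37a4 (58.6 ± 11.7 FPKM, mean ± SD, n = 4), Pcx (57.7 ± 5.19) and G6pc (56.1 ± 18.8) did not differ beyond their spread. The same held in Ctrl for Slc5a2 (17.7 ± 7.99), Slc2a2 (14.7 ± 4.68) and Slc2a1 (14.4 ± 4.55).

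Ratios between genes of the same library, in counts per base of gene length, do not depend on the scaling between libraries. Pck1 was 1.40, 2.06, 1.32 and 1.09 times Fbp1 in Ctrl 1 to 4, 7.58, 6.89, 7.48 and 5.35 times in Model, and 9.63, 7.08, 7.49 and 8.96 times in YHY. Every db/db mouse lay above every Ctrl mouse for this ratio, and Model and YHY overlapped. Pck1 was 6.25 to 10.2 times G6pc in Ctrl, 18.1 to 22.9 times in Model and 7.21 to 17.9 times in YHY, so that Model did not overlap either of the other groups. Slc5a2 was 0.458 to 2.03 times Slc5a1 in Ctrl, 2.41 to 6.24 times in Model and 1.69 to 8.42 times in YHY. Slc5a2 was 0.667 to 1.51 times Slc2a2 in Ctrl, 0.846 to 1.49 times in Model and 1.56 to 3.02 times in YHY, and YHY did not overlap the others. G6pc was 0.769 to 1.27 times its partner Slc37a4 in Ctrl, 0.644 to 0.865 times in Model and 0.758 to 1.53 times in YHY. The medians of this ratio were 0.878, 0.839 and 1.01, and the groups overlapped. These ratios were chosen after the values were seen, and no test was made of them.

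**Figure D3:**
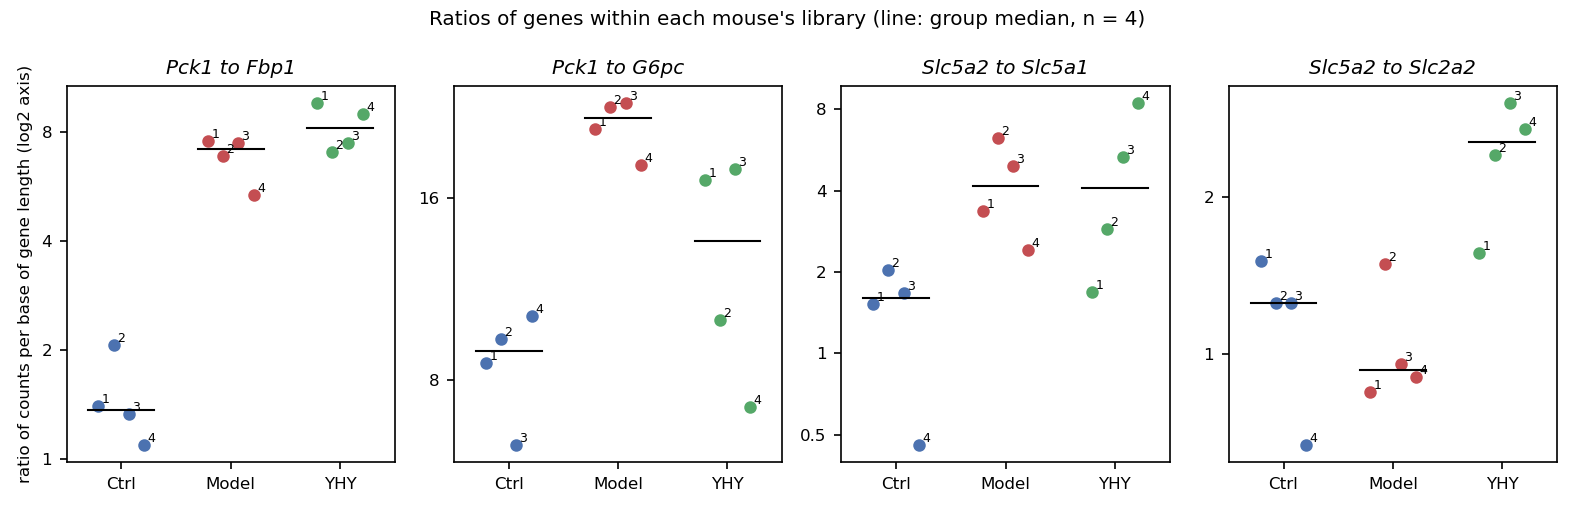
Ratios of 4 pairs of genes within each library, in counts per base of gene length (y axis, log2 scale), with 1 numbered point per mouse and a line at the group median (n = 4). The ratio of Pck1 to Fbp1 lies between 1.09 and 2.06 in Ctrl and at 5.35 or above in every db/db mouse.

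Each gene was compared with the genes of a mean level of at least 5 CPM by the mean absolute difference of their centred log2 levels over the 12 mice. The genes most like Slc5a1 were Aldh5a1 (0.14), Cth (0.16) and Cryz (0.16), and those most like Fbp1 were Slc46a1, Lrpap1 and Ddah1 (each 0.15). For Pck1 they were Scand1 (0.18), Gm5559 (0.19) and Rtl8a (0.19), and for Pcx they were Acaa1a (0.08), Decr1 (0.10) and Mtarc2 (0.12). Among the genes most like Slc2a2 were Spp2 (0.29) and Slc7a8 (0.30), and those most like Slc5a2 were Slc6a19 (0.33), Gm15318 and Glyat (each 0.37). The remaining lists were Retreg1 (0.14), Tyms (0.17) and Serpinb1a (0.19) for Slc5a10, and Tmem65 (0.14), Hk1 (0.15) and Specc1 (0.15) for Slc2a1. G6pc was nearest to Errfi1 (0.21), Trpc1 (0.26) and Bdh2 (0.26), and Slc37a4 to Glrx (0.13), Rnaseh2c (0.14) and C130074G19Rik (0.14). Among the 10 themselves, Slc5a10 and Pcx were the closest pair at 0.19, followed by Pcx and Slc37a4 at 0.23.

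**Figure D4:**
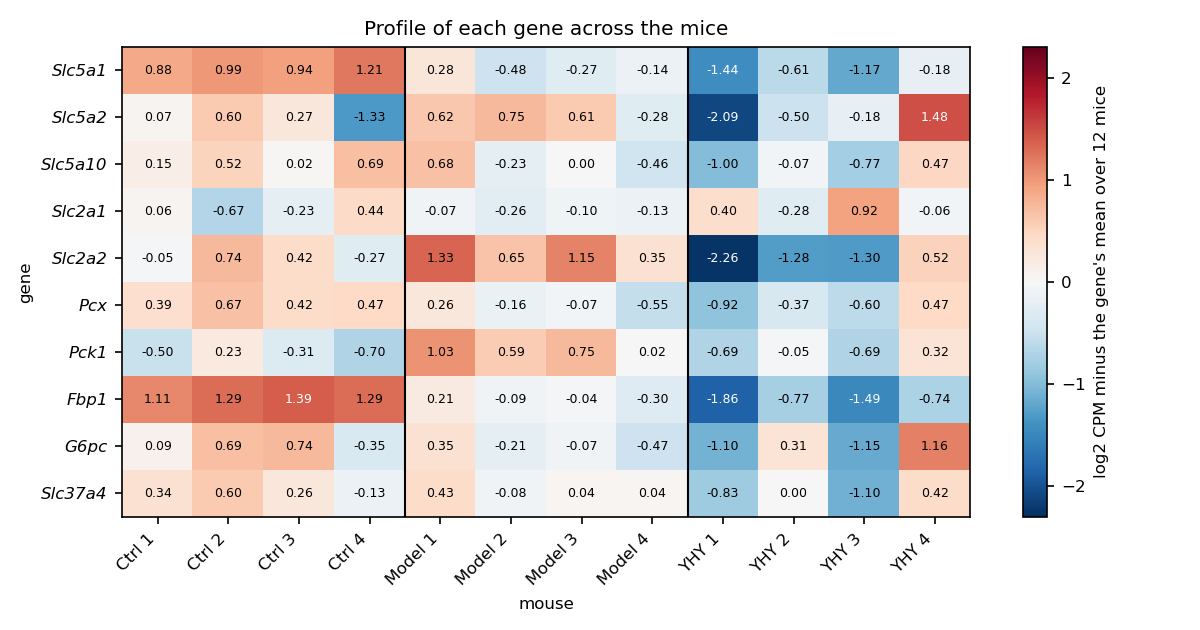
Log2 CPM minus the gene's mean over the 12 mice (color, with the value in each cell) for the 10 genes (y axis) in each mouse (x axis). Slc5a10, Pcx, G6pc and Slc37a4 are below their means in YHY 1 and YHY 3 and above them in YHY 4.

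Genes that work beside these 10 were described in 7 lists, of which 83 of 86 genes were tested. In all, 16 rose and 22 fell in Model against Ctrl, 5 rose and 10 fell in YHY against Model, and 21 rose and 30 fell in YHY against Ctrl, with median log2 fold changes of -0.01, -0.19 and -0.14. The genes that rose were 19.3%, 6.02% and 25.3% of the 83, near the 19.6%, 5.63% and 26.1% of all genes tested, and those that fell were 26.5%, 12% and 36.1%, against 18.5%, 7.62% and 24.2%. Under library size alone, fewer genes of the lists were higher and more were lower in both comparisons with Ctrl. For substrate supply, 1 rose and 17 fell in Model against Ctrl under that scaling, and 1 rose and 19 fell in YHY against Ctrl. For the regulators, 3 rose and 8 fell in YHY against Ctrl, where TMM gave 8 and 7. The genes of these lists are given by their log2 fold changes and adjusted P values.

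Of the 22 genes of substrate supply, 13 fell and 2 rose in Model against Ctrl, with a median log2 fold change of -0.72. Those with the largest changes were Mpc1, a subunit of the mitochondrial pyruvate carrier (-1.62, adjusted P 6.54e-05), Slc5a8, a sodium-coupled lactate carrier (-1.38, 0.00128), Mdh1, the cytosolic malate dehydrogenase (-1.33, 8.78e-05), and Ldha, a lactate dehydrogenase subunit (-1.29, 1.67e-05). In YHY against Model 5 fell, namely Glyctk, the glycerate kinase (-1.01, 0.00173), Ldha (-0.92, 0.0017), the mitochondrial citrate carrier Slc25a1 (-0.59, 0.0156), Gpd2, the mitochondrial glycerol-3-phosphate dehydrogenase (-0.55, 0.0497), and Slc25a11, the malate carrier (-0.48, 0.0381), which was named after its value was seen. Of these, Gpd2 and Slc25a11 lost the call without Model 1, Model 3, Model 4, YHY 1, YHY 2 or YHY 3, at -0.45 to -0.53 for Gpd2 and -0.42 to -0.51 for Slc25a11. Slc25a11 lost it without Model 2 as well (-0.51), and Slc25a1 lost it without Model 3 (-0.57, 0.0522). In YHY against Ctrl 15 fell and 2 rose, with a median of -1.03. Ldha was -2.21 (adjusted P 7.63e-08) and Slc5a8 -2.14 (2.14e-05) in that comparison. Slc5a12, another sodium-coupled lactate carrier, rose (2.11, 0.0363), but it was 0.13 with an adjusted P of 0.844 without YHY 4, and the call was also lost without Ctrl 1 (1.89), Ctrl 3 (2.26) or Ctrl 4 (1.69).

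Of the 8 genes of the reversible steps that glucose production shares with glycolysis, 4 fell in Model against Ctrl, with a list median of -0.58. They were the triose phosphate isomerase Tpi1 (log2 fold change -1.54, adjusted P 3.51e-06), the phosphoglycerate kinase Pgk1 (-1.53, 5.53e-06), the phosphoglycerate mutase Pgam1 (-1.52, 2.67e-05) and the enolase Eno1 (-0.85, 0.00529). Tpi1 (-1.95), Pgk1 (-1.71), Pgam1 (-1.87) and Eno1 (-1.09) also fell in YHY against Ctrl. In YHY against Model 0 of 8 passed in edgeR, 1 was lower at an unadjusted P under 0.05, and 1 was lower in DESeq2.

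Of the 3 tested isozymes of the glucose production enzymes, 2 rose in Model against Ctrl, Pck2, the mitochondrial form of the Pck1 enzyme (0.93, adjusted P 0.000237), and Fbp2, the muscle form of the Fbp1 enzyme (0.89, 0.017), and neither passed under library size alone. Pck2 was 1.26 in YHY against Ctrl (7.76e-06). Its mean level was 11.3 CPM for Ctrl, 21.5 for Model and 27.1 for YHY. The call of Fbp2 was lost without Ctrl 1 (0.77, adjusted P 0.0662), Ctrl 3 (0.76, 0.0678) or Model 1 (0.61, 0.0863).

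Of the 11 other facilitative sugar carriers, 3 rose in Model against Ctrl under TMM, Slc2a4, the insulin-dependent carrier GLUT4 (0.81, adjusted P 0.0017), Slc2a8 (0.60, 0.0209) and Slc50a1 (0.45, 0.0324), while under library size alone none was higher and 1 was lower. The median of the list was 0.45. The call of Slc2a8 was lost without Ctrl 1, Ctrl 4, Model 1 or Model 4 (0.47 to 0.53), and that of Slc50a1 without any 1 Ctrl mouse, Model 2 or Model 4 (0.33 to 0.46). Slc2a6 rose in YHY against Model (1.69, adjusted P 0.0409), and the call was lost without Model 1, Model 2, Model 3, YHY 1, YHY 2 or YHY 3 (1.25 to 1.78). In YHY against Ctrl Slc2a6 (1.60), Slc2a8 (1.00), Slc2a4 (0.71) and Slc50a1 (0.69, named after its value was seen) rose and Slc2a12 (-2.12, 0.00607) fell, while under library size alone none was higher and 2 were lower. The call of Slc2a6 in that comparison was lost without YHY 2 (1.15, 0.0748). Among the 5 tested genes of the other sodium-coupled carriers and their partner Pdzk1ip1, Slc5a3, a myo-inositol carrier, fell in Model against Ctrl (-1.03, 0.0194; not called without Ctrl 4, Model 2 or Model 3, at -0.89 to -0.99), and Slc5a4a, at a mean under 1 CPM and named after its value was seen, rose (2.42, 0.0029). Pdzk1ip1, also called MAP17, a protein that activates SGLT2, fell in YHY against Model (-0.80, 0.0331) and in YHY against Ctrl (-0.67, 0.0235), where Slc5a11, an inositol carrier, fell as well (-1.48, 0.00126). For Pdzk1ip1 the call against Model was lost without Model 1, Model 3, YHY 1, YHY 2 or YHY 3 (-0.60 to -0.80), and that against Ctrl without Ctrl 2, YHY 1, YHY 2 or YHY 3 (-0.53 to -0.64).

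Of 12 tested glycolytic enzymes that act against glucose production, 3 rose and 1 fell in Model against Ctrl under TMM, and 2 rose and 3 fell under library size alone. Pfkfb1 (1.92, adjusted P 0.00342), Hk3 (1.77, 0.00329) and Pfkfb4 (0.97, 0.00231) were higher and Pfkm (-0.97, 0.00023), a phosphofructokinase, was lower, and the list median was 0.19 under TMM and -0.26 under library size alone. In YHY against Model 0 of 12 passed in edgeR, 1 was higher at an unadjusted P under 0.05, and 0 passed in DESeq2.

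Of 22 regulators, 5 rose and 3 fell in Model against Ctrl under TMM (list median 0.09), and 2 rose and 7 fell under library size alone (-0.34). Foxo3 (1.30, adjusted P 1.7e-05) and Cebpb (1.05, 0.00375) rose, and Creb1 (-0.84, 0.000771) was among those that fell. Others, named after their values were seen, were Gcgr (0.71), Foxo1 (0.50) and Crebbp (0.43), which rose, and Nr3c1 (-0.71), which fell. Crebbp was -0.01 under library size alone, and the call was lost without any 1 of the 8 mice for Foxo1 (0.41 to 0.52), and without any 1 of them but Model 1 for Crebbp (0.35 to 0.45). In YHY against Model 4 rose and 4 fell: the kinase Sik1 (0.96, 0.00082) and the deacetylase Sirt1 (0.95, 0.0146) were higher, and Hnf4a (-0.94, 0.009) and Cebpa (-0.93, 0.00934) were lower. Pth1r, the most abundant of the list, was lower (-0.89, 0.0154), and the others there, named after their values were seen, were Crtc2 (0.84) and Creb1 (0.65), higher, and Foxo3 (-0.47), lower. The call of Foxo3 was lost without Model 2, Model 3, Model 4 or any 1 YHY mouse (-0.35 to -0.50), and that of Creb1 without Model 3 (0.55, 0.0635).

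**Figure D5:**
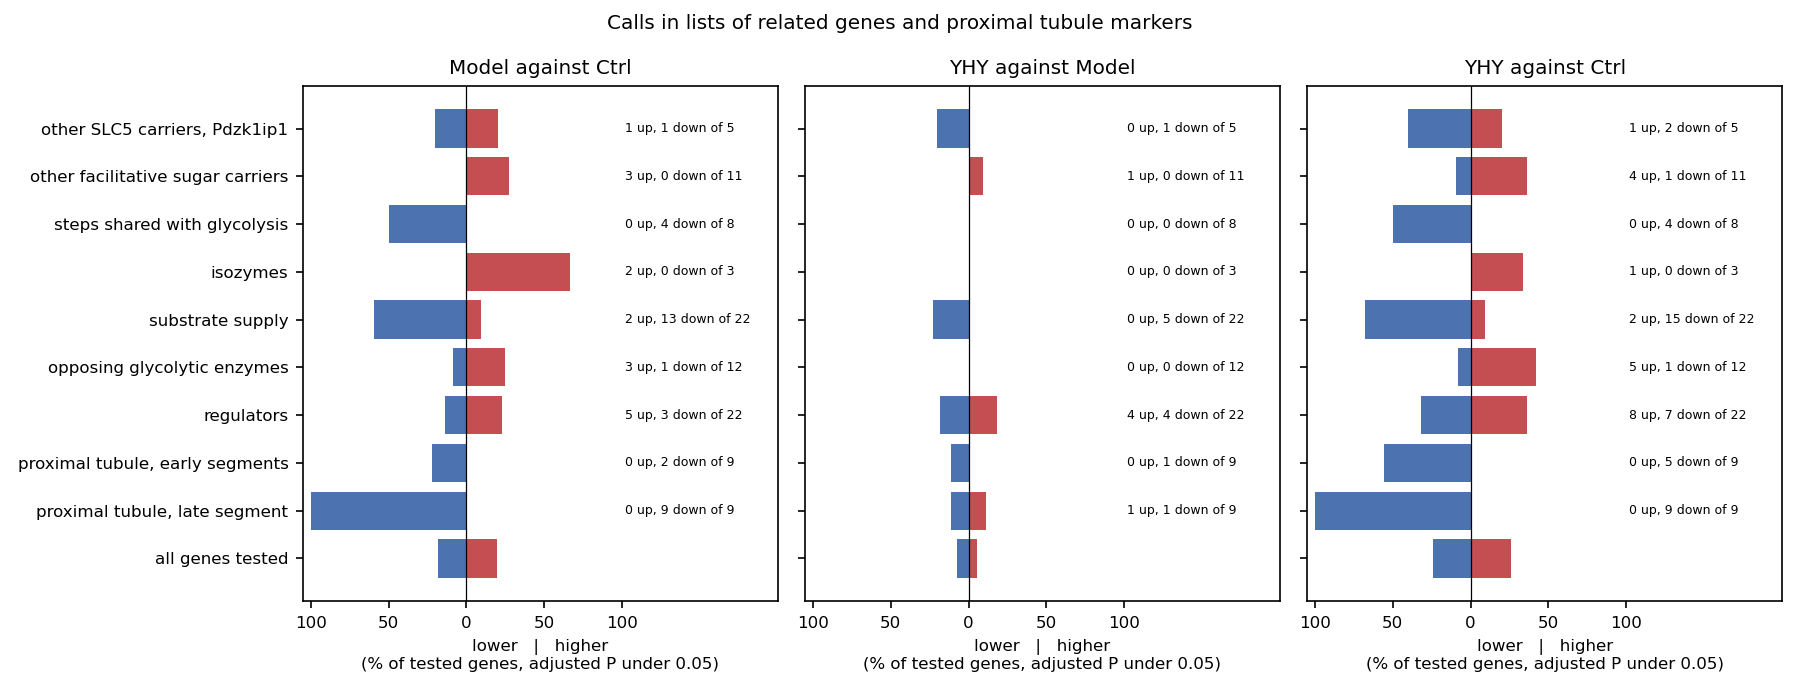
Percent of the tested genes of each list (y axis) that passed an adjusted P of 0.05, drawn to the left when lower and to the right when higher (x axis), beside all genes tested, in the 3 comparisons. Substrate supply has 13 lower genes of 22 between Model and Ctrl and 15 between YHY and Ctrl.

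Markers of the tubule moved beside these genes. Of 9 markers of the late proximal tubule, all 9 fell between Ctrl and Model (median log2 fold change -2.33) and between Ctrl and YHY (-3.44). The falls were uneven. Over the settings run, Model against Ctrl was -7.41 to -6.88 for Slco1a1 and -1.08 to -0.55 for Serpina1f, both named after their values were seen. Between YHY and Model 1 of the 9 was lower, Slc7a13, the most abundant (-1.11, adjusted P 0.0162), and 1 was higher, Cyp7b1 (0.62, 0.0415), named after its value was seen, with a list median of -0.21. The call of Cyp7b1 was lost without Model 1, Model 2, Model 3, YHY 1, YHY 2 or YHY 3 (0.47 to 0.66). Their summed level was 3260, 2966, 3010 and 1919 CPM for Ctrl, 584, 539, 660 and 769 for Model, and 532, 628, 410 and 501 for YHY. Every db/db mouse lay below every Ctrl mouse, as for Slc5a1 and Fbp1, and the part of these markers in the results for both genes was not tested.

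Of 9 markers of the early proximal tubule, 2 fell in Model against Ctrl, Lrp2 (-1.68, adjusted P 0.0004) and Cubn (-0.90, 0.0036), the endocytic receptors megalin and cubilin, both named after their values were seen. The number lower was 4 under library size alone and 3 in DESeq2. In YHY against Model 1 fell, the amino acid carrier Slc7a8 (-1.25, 0.031), also named after its value was seen, whose call was lost without Model 1, Model 2, Model 3, YHY 1, YHY 2 or YHY 3 (-1.01 to -1.26). In that comparison 5 of the 9 were lower at an unadjusted P under 0.05, 4 were lower in DESeq2, and the list median was -0.63. In YHY against Ctrl Lrp2 (-2.23), Slc4a4 (-1.61), Slc22a6 (-1.59), Cubn (-1.53) and Slc13a3 (-1.31) fell. The summed level of the list, led by Slc34a1, was 4517, 6157, 4909 and 3744 CPM for Ctrl, 4211, 3708, 4033 and 2920 for Model, and 1509, 3359, 2067 and 4264 for YHY. YHY 1 and YHY 3 were the lowest of the 12 and YHY 4 the highest of YHY, and within YHY the genes Slc5a1, Slc5a10, Slc2a2, Pcx, Pck1, Fbp1, G6pc and Slc37a4 also had their lowest levels in YHY 1 and YHY 3 and their highest in YHY 4. The part of these markers in the results for these 8 genes was not tested.

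Lepr, the gene of the leptin receptor that carries the db allele, was at 10.7, 4.83, 9.96 and 11.6 CPM for Ctrl, 8.27, 6.62, 2.78 and 7.78 for Model, and 16.6, 7.13, 11.9 and 4.34 for YHY. The groups overlapped, and the log2 fold change was -0.54 between Model and Ctrl (adjusted P 0.292). Counts per gene do not show the splice form that the db allele alters, so they do not check the genotype. Among markers of other tissues, the adipocyte genes had at most 16 counts in any library. Of the 4 adrenal genes, Cyp11b1 and Cyp11a1 had at most 4 and 8 counts, while Hsd3b1, the most abundant (log2 fold change 4.22, adjusted P 2.68e-06), and Star (1.32, 0.00128), named after its value was seen, rose in Model against Ctrl. The summed level of the adrenal list was 1.96 to 2.93 CPM in Ctrl, 11.7 to 24.3 in Model and 13.3 to 19.1 in YHY, and its part in the results was not tested. Of the 6 liver genes, Ahsg had at most 2 counts, Serpina3k at most 7 and Fgb at most 32 in any library, while Ttr, named after its value was seen, rose over Ctrl in Model (2.33, 0.000221) and YHY (2.38, 8.84e-05). Apoa2, the most abundant of the list, fell in YHY against Ctrl (-0.97, 0.0218), and the call was lost without Ctrl 2, YHY 2 or YHY 3 (-0.75 to -0.90). The summed level of the liver list was 9.12 to 17.8 CPM in Ctrl, 16.7 to 27.1 in Model and 8.18 to 23.3 in YHY, and its part in the results was not tested.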

How the data were processed

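The values are counts per gene deposited by the authors, with gene lengths from the same table, and FPKM was computed here from both. The submitters' notes name FastQC 0.11.9, Trimmomatic 0.39, HISAT2 2.2.1 with build GRCm39, SAMtools 1.12 and featureCounts 2.0.1, and they do not state the use of strand. Genes with low counts were removed with filterByExpr, and libraries were scaled by TMM. A quasi-likelihood fit of the 12 mice in edgeR 4.0.16 (R 4.3.3, limma 3.58.1) gave fold changes and P values adjusted by Benjamini-Hochberg over 17431 genes. A prior count of 2 entered only the log2 levels used for r between mice. Intervals come from the standard error of that fit. Exact permutation tests were two-sided over the 8 mice compared, with a smallest P of 0.0286. DESeq2 1.42.0 served as an alternative. Promoters and figures used Python 3.11.15 and matplotlib 3.10.9.

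Genes named are the 10 members, Lepr, Rusf1 and the genes most like each member. From the lists, the rule took the most abundant gene of each. It also took up to 4 genes per list and comparison with an adjusted P under 0.05, a mean of at least 1 CPM and the largest changes. Genes outside this rule were named after their values were seen. The members and lists were chosen with earlier results of these data known. The scripts were tested on simulated data. Wilson intervals and the floor of 3 counts cover counting error only. The libraries were compared in the 18 pairs within groups by a chi-square per degree of freedom, which was 17.3 to 139, so no library repeats another of its group. Within Model, the pairs with Model 1 were at 96.7 to 139, and the pairs without it at 21.2 to 31.0. Replicate numbers were read as names of mice. The comparison tables of the authors hold their own fold changes, P values and pathway results, and these were not used, nor were the 12 per-mouse columns in them.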

Additional observations from a re-analysis of the deposited data

Results flagged for a closer look

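Slc2a2 in YHY 4 was at 101 CPM, far from the other YHY mice at 14.7, 28.9 and 28.6. Among the 30 sets of 4 mice examined (10 genes in 3 groups) no other value lay so far from its group, and chance marks about 1 in 20 such sets.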

How the results depend on the processing

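Under the alternatives run, Crebbp between Model and Ctrl was the only named value past the threshold to turn direction, to -0.0088 under library size alone. With all 12 mice and TMM, 3, 2 and 3 of the 10 genes passed between Model and Ctrl, YHY and Model, and YHY and Ctrl. For YHY and Model the number was 4 under DESeq2, without the filter on low counts, with the 9 mice of the authors' means and under the study's limits. For YHY and Ctrl it was 6 under library size alone, without the filter and with the 9 mice. For Model and Ctrl it was 5 when only the 8 mice compared were fitted. The causes were not tested. Leaving out 1 mouse at a time gave 2 to 3, 1 to 4 and 2 to 6. In the main fit 38%, 13.3% and 50.3% of all genes passed in the 3 comparisons, in that order. Shares of all genes are not given for most alternatives, so these counts are not results about the 10 genes as a set. With the replicate block 3, 2 and 3 of the 10 genes passed. The r between same-numbered mice was -0.17 to 0.12 over 12 pairs, so the numbers were read as names. Of all genes, 2311 passed between YHY and Model, and 1178 did under library size alone, 1385 with the 8 mice, 1146 without Model 3 and 4988 under the study's limits. Fbp1 kept its call in all 3 comparisons and Slc5a1 in both comparisons with Ctrl under every setting run, with Fbp1 from -1.74 to -1.21 between Model and Ctrl and from -1.26 to -0.92 between YHY and Model. The lowest count of the 10 genes was 254, and the part of depth was not tested. With mitochondrial transcripts left out before scaling and fitting, no call of the 10 genes changed in any comparison. That fit compared the same mice, in which the mitochondrial share still moved with genotype, so the part of the share was not tested.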

Other observations

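Markers of other kidney cell types were also measured. In the loop of Henle list 3 of 4 genes fell in Model against Ctrl, with Umod, the most abundant, which encodes uromodulin, at a log2 fold change of -2.86 (adjusted P 5.43e-05). In the distal tubule list 2 of 4 rose, the sodium-chloride carrier Slc12a3 (1.33, 0.000256) and the magnesium channel Trpm6 (2.07, 0.000435). Of 8 collecting duct genes, the water channels Aqp2 (-1.18, 0.0354, not called without Ctrl 1, Ctrl 4, Model 2, Model 3 or Model 4, at -0.82 to -1.19) and Aqp3 (-1.72, 0.000389) fell. Of 5 podocyte genes 2 rose, Nphs1 (1.86, 5.44e-05) and Synpo, whose call was kept in 8 of 18 settings. The summed podocyte level was 107 to 147 CPM in Ctrl and 100 to 249 in Model. Of 5 erythroid genes 3 fell in Model against Ctrl, among them Alas2, the heme synthesis enzyme of red cells (-1.87, 0.00588), and the globin gene Hbb-bs (-1.46, 0.00501), while the globin gene Hba-a2 rose (0.70, 0.0452), a call lost without any 1 Ctrl mouse except Ctrl 4 and without any 1 Model mouse (0.55 to 0.76).

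In YHY against Model, Pvalb, the most abundant of the distal tubule list, fell (-1.59, adjusted P 0.0102), as did the collecting duct gene Atp6v1g3, a subunit of the proton pump (-1.13, 0.00568). Alas2 (1.71, 0.0274) and Hbb-bs (1.29, 0.028) rose, with a median of 1.11 over the erythroid list. Both calls were lost without any 1 Model mouse or YHY 3, and that of Hbb-bs without YHY 4 too (1.46 to 1.81 for Alas2, 0.93 to 1.32 for Hbb-bs). The summed erythroid level was 306 to 686 CPM in Ctrl, 271 to 476 in Model, and 491, 324, 791 and 1061 in YHY 1 to 4. Against Ctrl, YHY showed lower Umod (-1.89, 0.000535), Aqp3 (-1.93, 7.77e-05) and Pvalb (-1.33, 0.00549), and higher Slc12a3 (1.28, 0.00017), Trpm6 (2.52, 4.61e-05), Nphs1 (1.62, 6.55e-05), Hba-a2 (1.14, 0.00198) and Hba-a1 (0.99, 0.0207). The call of Hba-a1, the most abundant erythroid gene, was lost without Ctrl 1, Ctrl 2, Ctrl 3 or YHY 4 (0.68 to 0.92). The median of the erythroid list was -0.07 in that comparison, and under library size alone 0 of its 5 genes were higher. Of the 5 podocyte genes 3 rose and 1 fell, Podxl, at -1.46 to -0.88 over the settings run. The summed podocyte level was 74.0 to 153 CPM in YHY. The immune gene Lyz2, the most abundant of its list, rose in YHY against Ctrl (1.25, 0.00355), and the summed immune level was 72.1 to 114 CPM in Ctrl, 122 to 194 in Model and 123 to 380 in YHY. The part of these markers in the results for the glucose genes was not tested. Genes other than the most abundant of each list were named after their values were seen.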
